A study of Mus musculus with 12 samples.

Results

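The 10 genes described here encode subunits of the transcription factor AP-1 and immediate early regulators that are switched on beside it: Fos, Fosb, Fosl1, Fosl2, Jun, Junb, Jund, Atf3, Egr1 and Ier2. They were taken as the rows of the deposited count table that carry these symbols, 10 of 53735 symbols, and all 10 passed the filter on low counts that left 18236 tested genes. RNA was sequenced from live mouse mammary epithelial cells that had been separated from enzymatically digested glands by sorting on the surface proteins CD24 and CD49f. The 12 libraries form 4 groups of 3: MMTVRANK luminal, WT luminal, MMTVRANK basal and WT basal cells. In MMTVRANK mice the mouse mammary tumour virus promoter, which is active mainly in mammary epithelium, drives the receptor Rank (gene Tnfrsf11a), and the other mice are labelled WT. The labels give neither the age nor the strain of the mice, nor whether replicates are separate animals, so every p-value measures the spread between these libraries. Every group passed through digestion and sorting, and levels in undigested tissue were not measured.

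Total counts lay between 12459547 and 15069578 per library. The labels contradict themselves for the WT libraries numbered 2, whose titles and subtype fields name opposite populations. The titles were used, and by them the summed CPM (read counts scaled to library size with TMM factors) of 15 luminal markers was 8123 to 24912 in luminal libraries and 597 to 863 in basal libraries. The sum of 12 basal markers was 294 to 787 CPM in luminal libraries and 24646 to 32471 CPM in basal libraries. Tnfrsf11a had 156 to 319 CPM in MMTVRANK luminal libraries, against 90.8 CPM in the library labelled WT luminal replicate 2 and 6.36 and 9.91 CPM in the other two WT luminal libraries. It had 129 to 415 CPM in MMTVRANK basal libraries, against 158 CPM in the library labelled WT basal replicate 2 and 73.7 and 65.3 CPM in the other two. The Tnfrsf11a level thus goes against the WT label of both libraries numbered 2, and genotype results are also given without them where that changes a call.

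AP-1 is a dimer of leucine zipper proteins. Fos family proteins (Fos, Fosb and the products of Fosl1 and Fosl2, known as Fra-1 and Fra-2) must pair with a Jun family protein to bind DNA, while Jun proteins can also pair with each other or with proteins of the Atf family such as Atf3. Fos, Fosb, Jun, Junb, Atf3, the zinc finger factor Egr1 and the small nuclear protein Ier2 are immediate early genes: growth factors, stress and tissue dissociation induce them quickly and briefly without new protein synthesis. Jund is made more steadily, and Fosl1 and Fosl2 are themselves AP-1 targets that accumulate later. Rank signals through MAP kinases and NF-kB, and in osteoclasts it acts through Fos; in the mammary gland it carries progesterone signals to the epithelium.

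Promoter sequence from the RefSeq table (build GRCm38.p6) was used for 7 of the 10 genes. None was used for Fosl1, Egr1 or Ier2, which need not mean that the table lacks them. The 250 bases before the RefSeq start site are printed for Fos and Fosb, the Fos genes with the highest counts, for Jun, the highest of the 10 genes per exon length, and for Atf3, whose luminal over basal fold change was the highest of the 10. Fos lies at chr12:85473640-85473889 (+), Fosb at chr7:19310046-19310295 (-), Jun at chr4:95052223-95052472 (-) and Atf3 at chr1:191183334-191183583 (-). Each reads 5′ to 3′ on the gene's strand. Capitals mark TGACG, the core of the cyclic AMP response element bound by Creb and Atf proteins (CGTCA where it lies on the other strand), and TGACATCA, an AP-1-like site described in the Jun promoter and searched for after the sequence had been seen.
Fos: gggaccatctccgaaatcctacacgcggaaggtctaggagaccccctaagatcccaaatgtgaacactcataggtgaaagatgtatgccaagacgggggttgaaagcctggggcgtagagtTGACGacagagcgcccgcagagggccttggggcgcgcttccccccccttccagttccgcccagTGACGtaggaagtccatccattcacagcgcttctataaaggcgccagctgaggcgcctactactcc
Fosb: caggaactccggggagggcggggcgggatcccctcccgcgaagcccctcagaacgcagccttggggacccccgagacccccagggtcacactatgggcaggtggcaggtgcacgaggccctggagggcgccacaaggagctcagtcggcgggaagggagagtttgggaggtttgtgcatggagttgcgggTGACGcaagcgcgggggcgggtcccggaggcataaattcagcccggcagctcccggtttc
Jun: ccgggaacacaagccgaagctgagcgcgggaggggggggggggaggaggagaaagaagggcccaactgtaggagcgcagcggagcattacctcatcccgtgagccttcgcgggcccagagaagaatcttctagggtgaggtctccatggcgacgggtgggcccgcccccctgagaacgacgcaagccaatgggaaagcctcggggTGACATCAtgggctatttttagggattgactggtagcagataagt
Atf3: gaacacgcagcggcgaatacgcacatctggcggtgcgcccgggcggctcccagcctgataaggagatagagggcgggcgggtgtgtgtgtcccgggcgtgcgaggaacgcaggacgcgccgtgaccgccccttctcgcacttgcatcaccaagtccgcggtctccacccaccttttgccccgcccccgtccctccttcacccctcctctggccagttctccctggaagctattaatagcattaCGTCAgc

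Both strands were searched, with positions counted from the start site. TGACG stood in the Fos promoter at -129 to -125 and at -66 to -62, in Fosb at -60 to -56, in Junb at -106 to -102 and in Atf3 at -7 to -3 on the other strand, and it was not in the windows of Jun, Jund or Fosl2. The Jund window, chr8:70697489-70697738 (+), ends well upstream of the deposited Jund gene, which starts at 70698949. The Fosl2 and Atf3 windows lie inside the deposited Fosl2 and Atf3 genes. None of these windows describes the bases before the counted gene. By the same search 17.8% of 32851 promoter windows in the table hold TGACG. The Jun window held TGACATCA at -45 to -38, as do 2.93% of windows, and the Fos window held the TATA sequence TATAAA at -33 to -28, as do 12.4%. The full AP-1 site TGACTCA (4.46% of windows), the full response element TGACGTCA (1.55%; it contains TGACG) and the CArG box of serum response factor (1.47%) were in none of the 7 windows. Bases further upstream and the promoters of Fosl1, Egr1 and Ier2 were not searched, so a site there would not have been seen. These matches describe letters in a window and show no binding.

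Per exon length, the mean levels of the 10 genes ranked from 23 (Jun in WT luminal cells) to 1827 (Fosl2 in MMTVRANK luminal cells) among all symbols. TPM, which scales counts by exon length as well as library size, placed Jun and Fos highest of the 10 genes in all 4 groups. That order rests on the summed exon lengths, 6243 bp for Fosb against 2352 bp for Fos and 3189 bp for Jun. By mean CPM, Fosb was highest in WT luminal (3718), MMTVRANK basal (2391.5) and WT basal cells (2688), and Jun in MMTVRANK luminal cells (2503). Jun averaged 1676 ± 445 TPM in MMTVRANK luminal, 2100.4 ± 221 in WT luminal, 957 ± 179.6 in MMTVRANK basal and 1173 ± 311 in WT basal cells (SD, n = 3 each), which ranked it 25, 23, 45 and 41 among all symbols. Fos averaged 1198 ± 362, 1921 ± 351, 849 ± 276 and 1046 ± 338 TPM in the same 4 groups, at ranks 39, 24, 54 and 46. Jun was above Fos in 9 of the 12 libraries, and Fos was above Jun in replicate 1 of WT luminal, MMTVRANK basal and WT basal cells, so that order held in the MMTVRANK luminal libraries alone without exception. Atf3 came next in both luminal groups, with 1158 ± 102 TPM in MMTVRANK and 1669 ± 452 TPM in WT, and Junb came next in both basal groups, with 726 ± 235 TPM in MMTVRANK and 937 ± 249.9 TPM in WT. Fosl2 averaged 48.3 ± 15.7, 53.5 ± 26.7, 103 ± 20.5 and 151 ± 70.9 TPM in MMTVRANK luminal, WT luminal, MMTVRANK basal and WT basal cells. It ranked 1827, 1636, 615 and 439 in those groups, and it was the lowest of the 10 genes except in WT luminal cells, where Fosl1 had 52.9 ± 31.9 TPM. Together the 10 genes took 1.03 ± 0.210% of all counts in MMTVRANK luminal, 1.505 ± 0.267% in WT luminal, 0.839 ± 0.161% in MMTVRANK basal and 1.02 ± 0.134% in WT basal libraries.

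**Figure D1:**
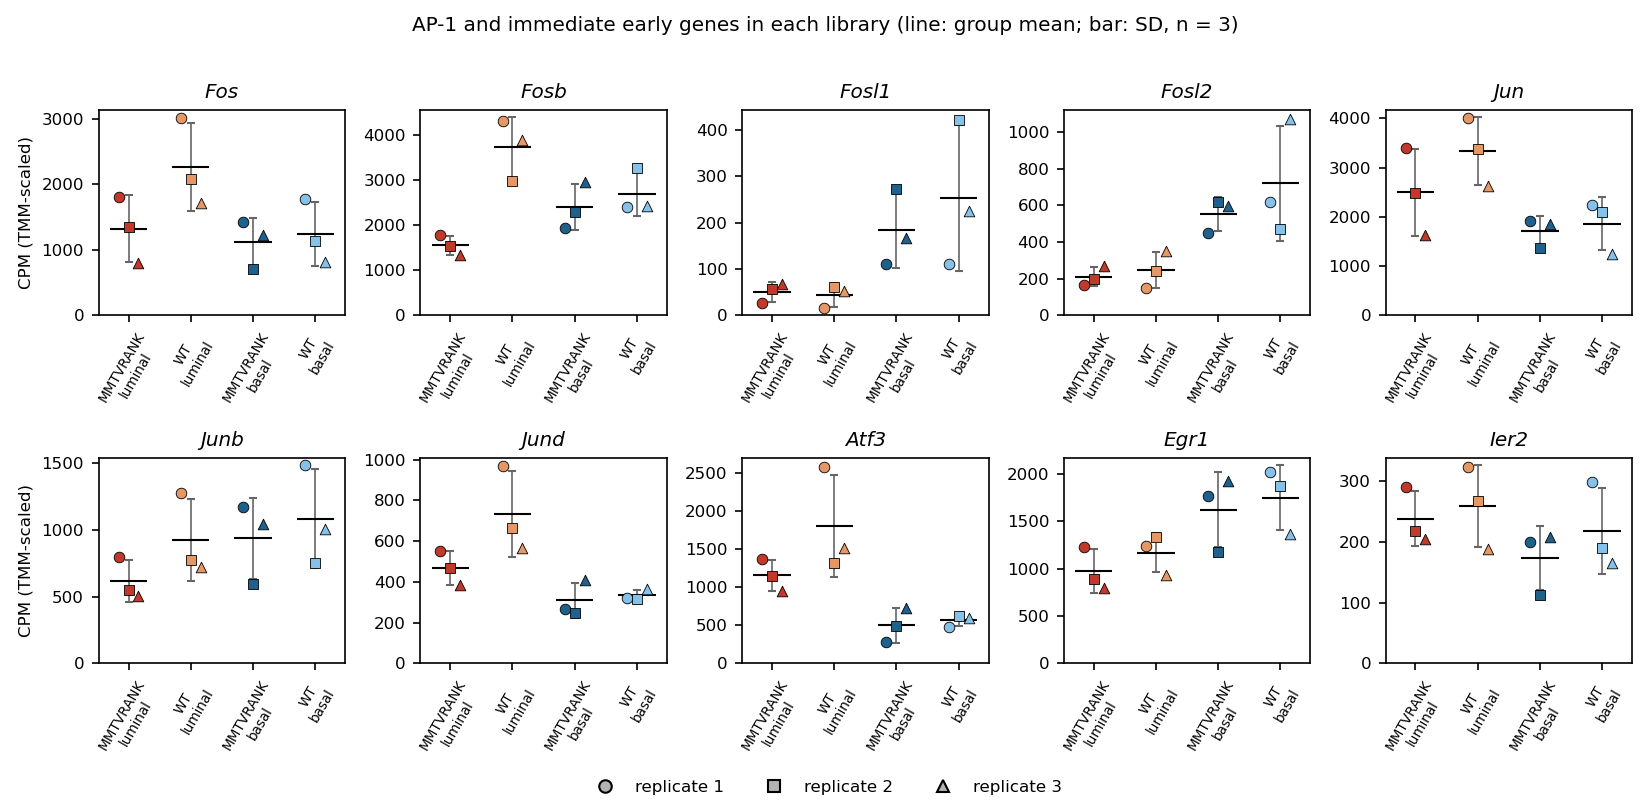
Levels of the 10 genes in each library, in TMM-scaled CPM (linear axes starting at 0), with 1 panel per gene; symbols mark replicate numbers, lines the group mean and bars the SD (n = 3). The MMTVRANK luminal libraries have 1340.4 to 1767 CPM of Fosb, below the 2985 to 4294 CPM of the WT luminal libraries.

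The shares of the family members were compared over the libraries of each group. Within the summed TPM of the Fos family, Fosl1 and Fosl2 together took 6.64% (2.99 to 10.8%) in MMTVRANK luminal and 3.40% (1.23 to 4.74%) in WT luminal libraries. They took 16.6% (10.9 to 25.1%) in MMTVRANK basal and 19.3% (10.2 to 24.9%) in WT basal libraries. The luminal and basal ranges did not overlap within either genotype, although the MMTVRANK ranges nearly met and the highest MMTVRANK luminal library, at 10.8%, lay above the lowest WT basal library, at 10.2%. Within the Jun family, Junb took 20.4 ± 2.25% in MMTVRANK luminal and 21.1 ± 2.27% in WT luminal libraries, against 35.5 ± 4.60% in MMTVRANK basal and 37.2 ± 8.08% in WT basal libraries. Jun was the largest part of its family in 11 of the 12 libraries; in WT basal replicate 3, Junb was larger. These shares are a description, and no test was made of them. Jund shares 52.58% of its exon length with a gene on the opposite strand that had 0 counts. If reads there were left uncounted, the Jund share is too low and the shares of Jun and Junb are too high.

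**Figure D2:**
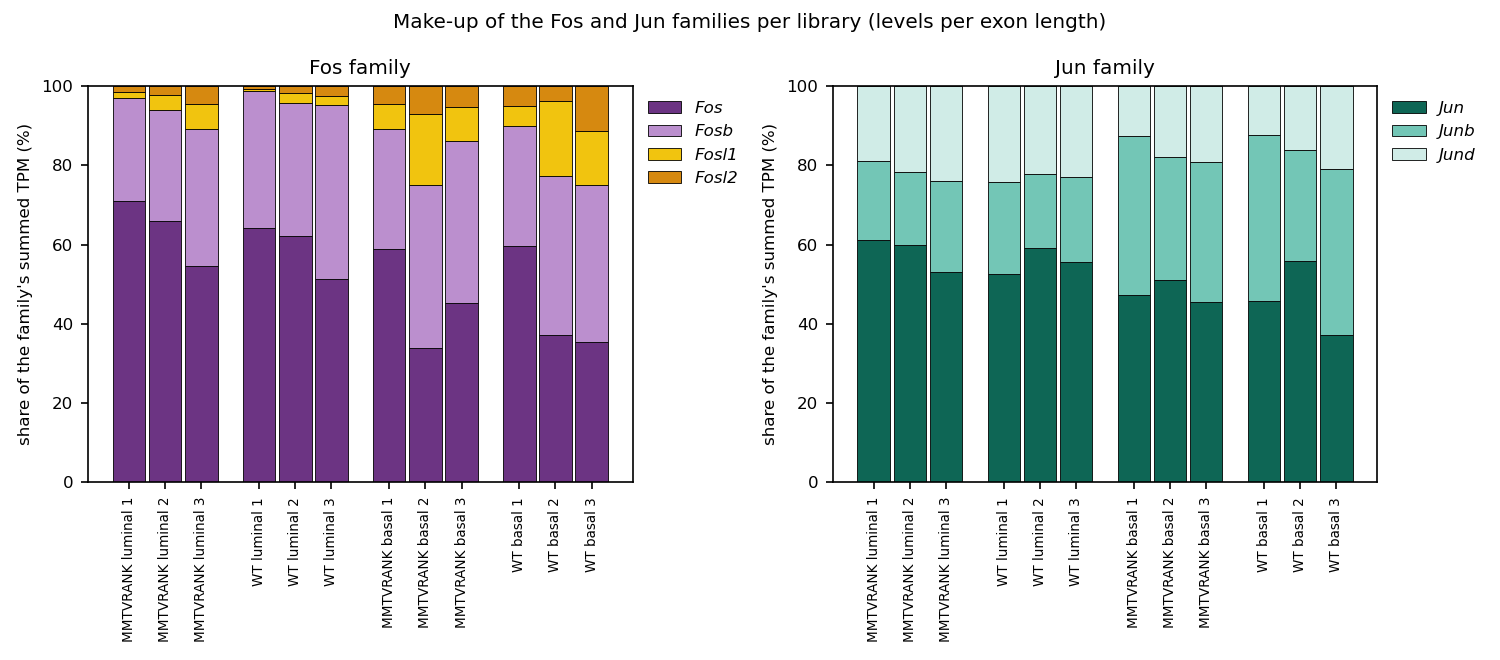
Share of each member in the summed TPM of the Fos family (left) and the Jun family (right), as stacked bars adding to 100% for each of the 12 libraries. Fosl1 and Fosl2 together reach 10.8% at most in a luminal library, and Junb takes 27.9% at least in a basal library and 23.2% at most in a luminal library. The Jun family shares carry the limit of the Jund count given in the text.

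Fosb fell in MMTVRANK luminal cells, and no other member passed the test there. The gene encodes a Fos protein that is also known for a long-lived short form. Fosb had 1767, 1529 and 1340.4 CPM in MMTVRANK luminal libraries, against 4294, 2985 and 3876 CPM in WT luminal libraries. The groups did not overlap, and the lowest WT library stood well above the highest MMTVRANK library. The log2 fold change was -1.27 (SE 0.22, adjusted p = 0.0457, quasi-likelihood test of edgeR, adjusted by Benjamini-Hochberg over all tested genes). It was 1 of 46 tested genes called in this comparison, 0.252% of them, and 1 of the 29 that were lower (0.159%), while no member was among the 17 that were higher (0.0932%). The count of 46 became 103 with the replicate number as a block, and the split of 17 higher and 29 lower became 15 and 41 with median-of-ratios scaling. Higher calls outnumbered lower ones with DESeq2 (459 and 268), with no filter on low counts (934 and 419), without MMTVRANK luminal replicate 1 (46 and 19) or 2 (31 and 16) and without WT basal replicate 3 (52 and 41).

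The direction of the Fosb difference held in every alternative fit, between -1.42 and -1.15 on the log2 scale, while its call did not. The adjusted p was 0.0789 without MMTVRANK luminal replicate 2, 0.123 without MMTVRANK luminal replicate 3, 0.128 without WT luminal replicate 1 and 0.109 without WT luminal replicate 3. It was 0.0759, 0.0867 and 0.0765 without MMTVRANK basal replicate 1, 2 and 3, 0.0613 without WT basal replicate 1, and 0.0988 when the luminal groups were fitted alone. The basal libraries are not part of this contrast but enter the fit through the shared estimate of spread. Leaving out 1 of them also changes the filter, the scaling and the p-values of the other genes. Which of these moved the adjusted p was not tested.

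The other Fos genes did not pass the test between genotypes in luminal cells. Fos, whose protein is the founding partner of Jun, had 1812, 1353 and 799 CPM in MMTVRANK luminal libraries, against 3013, 2073 and 1706 CPM in WT luminal libraries. The highest MMTVRANK library lay just above the lowest WT library, and the log2 fold change was -0.78 (SE 0.37, adjusted p = 0.45 by edgeR; 0.0146 with no filter on low counts). Fosl1 and Fosl2 overlapped widely: Fosl1 had 25.8, 56.4 and 67.5 CPM in MMTVRANK luminal and 15.3, 60.4 and 52.7 CPM in WT luminal libraries. Fosl2 had 168, 199.7 and 266 CPM in MMTVRANK luminal and 150.4, 239 and 350.1 CPM in WT luminal libraries.

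Among the Jun genes only the luminal levels of Jund separated the genotypes without overlap. Jund, whose product is the Jun protein of resting cells, had 551, 471 and 384 CPM in MMTVRANK luminal libraries, against 969, 667 and 566 CPM in WT luminal libraries. The log2 fold change of -0.65 (SE 0.24, unadjusted p = 0.0176) had an adjusted p of 0.269 by edgeR. Libraries that do not overlap were found for 16.9% of all tested genes in this comparison, 10.1% higher and 6.82% lower in MMTVRANK cells, and Fosb and Jund were the 2 such members. Jun, the main transactivating partner, had 3394, 2490.1 and 1625 CPM in MMTVRANK luminal and 3998, 3385 and 2621 CPM in WT luminal libraries (log2 fold change -0.41, SE 0.30). Junb, which can restrain Jun, had 795, 552 and 504 CPM in MMTVRANK luminal and 1275, 773 and 724 CPM in WT luminal libraries (log2 fold change -0.58, SE 0.32). The values of both genes overlapped between the genotypes, with adjusted p of 0.695 for Jun and 0.544 for Junb.

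Atf3, a stress-induced factor that can repress transcription, had 1367, 1146 and 954 CPM in MMTVRANK luminal libraries, against 2578, 1321 and 1517 CPM in WT luminal libraries. Its groups overlapped by a narrow margin (log2 fold change -0.64, SE 0.33, adjusted p = 0.487 by edgeR). Egr1, a growth-factor-induced zinc finger factor, had 1232, 895 and 795 CPM in MMTVRANK luminal and 1240.2, 1330.3 and 938 CPM in WT luminal libraries. Ier2 had 289.7, 219 and 205 CPM in MMTVRANK luminal and 323, 267 and 189 CPM in WT luminal libraries, with intermingled values. Across the 10 genes, 9 log2 fold changes were negative, with a median of -0.50 beside 0.03 over all tested genes, and Fosl1 was the exception at 0.22. Replicate numbers, whose meaning the labels leave unstated, were read as pairing the luminal libraries of the genotypes, judged from the data alone. Deviations of same-numbered libraries from their group means correlated at 0.525, 0.125 and 0.392. By number, the MMTVRANK library was below the WT library in all 3 pairs for 7 members, namely Fos, Fosb, Jun, Junb, Jund, Atf3 and Egr1, and above it in all 3 for none. Of all tested genes 38.4% kept 1 direction in all 3 pairs, 16.5% lower and 21.9% higher. With the replicate number as a block, Fosb stayed the only member called (adjusted p = 0.0427, edgeR), and the adjusted p of the other 6 lay between 0.173 for Fos and 0.707 for Egr1.

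Those negative values came with differences between single libraries. WT luminal replicate 1 was the highest of the 6 luminal libraries for 7 of the 10 members, and MMTVRANK luminal replicate 3 was the lowest for 7. WT luminal replicate 1 had 2.22% mitochondrial counts and 19472 genes with a count, against 6.99 to 9.36% and 23144 to 25591 genes in the other 5. MMTVRANK luminal replicate 3 had 1125 CPM in 12 leukocyte markers, none of them at 0, against 5.79 to 47.8 CPM with 1 to 3 markers at 0 in the other 5. The summed luminal markers were 8123 to 14401 CPM in MMTVRANK luminal and 17463 to 24912 CPM in WT luminal libraries. The part of these measures in the member levels was not tested. The median over the members was -0.28 without WT luminal replicate 1 and -0.48 without MMTVRANK luminal replicate 3. It was -0.79 without MMTVRANK luminal replicate 1 and -0.70 without WT luminal replicate 3. In such bulk samples fewer cells that carry an RNA and less of it per cell cannot be told apart.

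**Figure D3:**
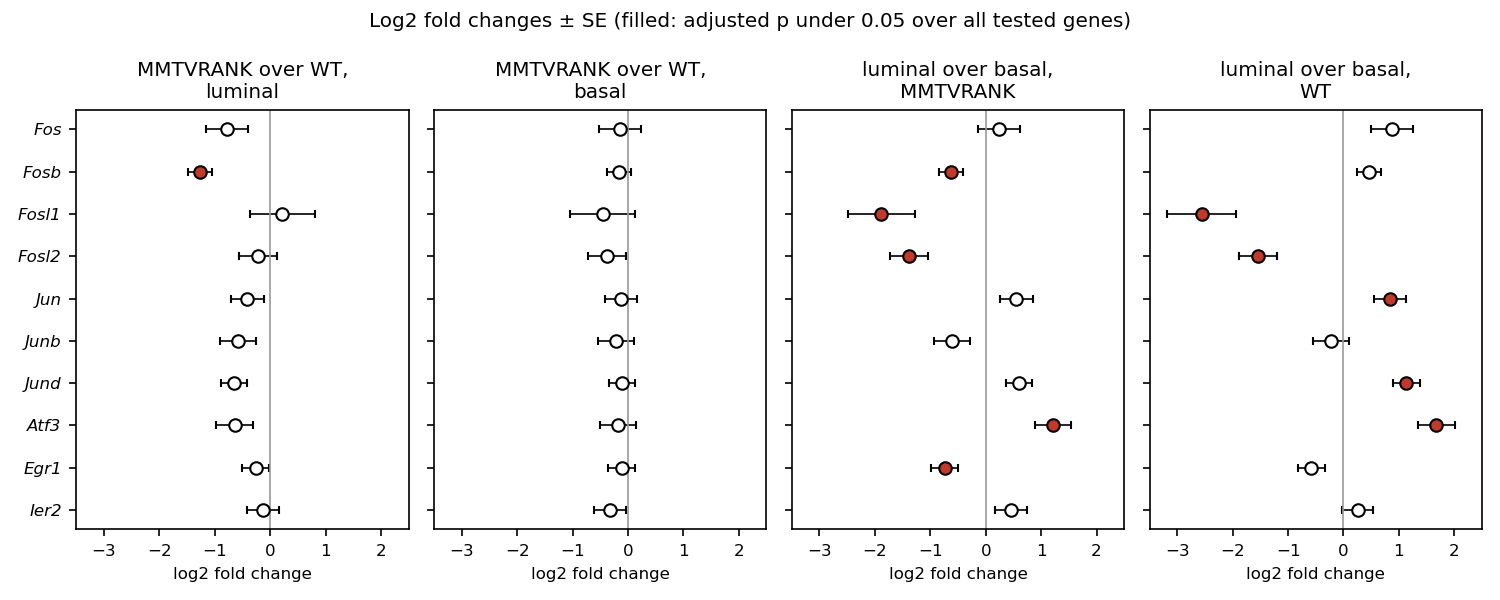
Log2 fold changes of the 10 genes in 4 comparisons, with bars of 1 SE; filled points have an adjusted p under 0.05 over all tested genes (edgeR). Fosb is the only filled point for genotype, at -1.27 in luminal cells, and Atf3 is filled above 0 and Fosl1 and Fosl2 below 0 in both comparisons of populations.

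In basal cells none of the 10 genes passed the test between genotypes, where 1 tested gene in all was called (0.00548%). No member had an unadjusted p under 0.05, which 986 tested genes had, and no member was called by DESeq2 or limma-voom. Fosb had 1939.6, 2292 and 2943 CPM in MMTVRANK basal libraries, against 2393, 3253 and 2417 CPM in WT basal libraries. Fos had 1419, 709.8 and 1229 CPM in MMTVRANK basal and 1773, 1131 and 808 CPM in WT basal libraries. All 10 pairs of groups overlapped, where 11.1% of tested genes had groups that did not (6.6% higher and 4.52% lower). The 10 log2 fold changes lay between -0.46 for Fosl1 and -0.11 for Egr1, each with an adjusted p of 1, and their median was -0.18 beside 0.00 over all tested genes. Fosl1 had 112, 273 and 167 CPM in MMTVRANK basal and 111, 423 and 225 CPM in WT basal libraries, and its log2 fold change was 0.14 with both WT libraries numbered 2 left out.

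The genotype effect on Fosb was -1.27 in luminal and -0.17 in basal cells, and the difference of these effects was -1.10 (SE 0.31, unadjusted p = 0.00365). After adjustment it did not pass (adjusted p = 0.415, edgeR), so the Fosb effect is not shown to differ between the populations; with no filter on low counts the adjusted p was 0.0248. For this difference 1 tested gene was called (0.00548%) and 1410 had an unadjusted p under 0.05, among them Fosb alone of the 10 members. The members' other differences of effect lay between -0.63 for Fos and 0.68 for Fosl1.

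Between the populations the Fos family split: luminal cells of both genotypes held less Fosl1 and Fosl2 RNA than basal cells did. Libraries that do not overlap are common here, at 54.5% of tested genes in MMTVRANK (27.7% higher and 26.8% lower in luminal cells) and 46.1% in WT (22.3% higher and 23.8% lower). Fosl1, the gene of Fra-1, had 25.8, 56.4 and 67.5 CPM in MMTVRANK luminal against 112, 273 and 167 CPM in MMTVRANK basal libraries. It had 15.3, 60.4 and 52.7 CPM in WT luminal against 111, 423 and 225 CPM in WT basal libraries. No luminal library reached the lowest basal library of its genotype, and the log2 fold change was -1.88 (SE 0.61, adjusted p = 0.035, edgeR) in MMTVRANK and -2.56 (SE 0.62, adjusted p = 0.00793) in WT. The spread within groups was wide, with a highest over lowest ratio of 3.96 in WT luminal and 3.81 in WT basal libraries. The WT call held in all 12 fits that left out 1 library. The MMTVRANK call was lost without MMTVRANK luminal replicate 1, 2 or 3 (adjusted p = 0.128, 0.0865 and 0.0565) and without MMTVRANK basal replicate 2 or 3 (0.132 and 0.0681).

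Fosl2, the gene of Fra-2, had 168, 199.7 and 266 CPM in MMTVRANK luminal against 448, 619.9 and 594 CPM in MMTVRANK basal libraries. It had 150.4, 239 and 350.1 CPM in WT luminal against 615, 471 and 1072 CPM in WT basal libraries. The populations did not overlap in either genotype, with log2 fold changes of -1.39 (SE 0.35, adjusted p = 0.00838, edgeR) in MMTVRANK and -1.54 (SE 0.35, adjusted p = 0.0042) in WT, and both calls held in all 12 fits that left out 1 library.

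Fosb took opposite signs in the genotypes. In MMTVRANK mice its luminal libraries lay below its basal ones (1767, 1529 and 1340.4 against 1939.6, 2292 and 2943 CPM), with no overlap. The fitted value was -0.63 on the log2 scale (SE 0.22, adjusted p = 0.0414, edgeR). With the replicate number as a block the adjusted p was 0.0516. It was 0.0534, 0.118 and 0.132 without MMTVRANK luminal replicate 1, 2 and 3, 0.0576 without WT luminal replicate 3, and 0.0794 and 0.177 without MMTVRANK basal replicate 2 and 3. In WT cells the log2 fold change was 0.47 (SE 0.22, adjusted p = 0.109; 0.0372 with both WT libraries numbered 2 left out), and WT luminal replicate 2 with 2985 CPM lay below WT basal replicate 2 with 3253 CPM. The test of the difference between these contrasts is that of the genotype effects, with an adjusted p of 0.415.

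Fos overlapped between the populations in both genotypes, with log2 fold changes of 0.24 (SE 0.37, adjusted p = 0.666, edgeR) in MMTVRANK and 0.87 (SE 0.37, adjusted p = 0.0871) in WT. The WT value was 0.90 with an adjusted p of 0.0143 when the replicate number was a block, 0.91 with an adjusted p of 0.000468 with no filter on low counts, and 1.24 with an adjusted p of 0.0339 without WT basal replicate 1. That library had the highest Fos of the basal libraries, 1773 CPM, and 2772 CPM in 6 fibroblast markers against 269 to 657 CPM in the other 5 basal libraries, none with a marker at 0; the part of this in the Fos level was not tested.

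In the Jun family, Jun and Jund were higher in WT luminal than in WT basal cells. Jun had 3998, 3385 and 2621 CPM in WT luminal against 2249, 2096 and 1241 CPM in WT basal libraries, without overlap (log2 fold change 0.84, SE 0.30, adjusted p = 0.0407, edgeR). That call was lost without MMTVRANK luminal replicate 2 (0.052), WT luminal replicate 1 (0.123) or 2 (0.0812), MMTVRANK basal replicate 1 (0.0506) or 3 (0.0518), or WT basal replicate 2 (0.0574) or 3 (0.134). The adjusted p was also 0.0613 with the WT groups fitted alone and 0.104 with both WT libraries numbered 2 left out, and the log2 fold change stayed between 0.63 and 1.01 in all these fits. In MMTVRANK cells Jun had 3394, 2490.1 and 1625 CPM in luminal against 1909, 1364 and 1850.2 CPM in basal libraries (log2 fold change 0.55, SE 0.30, adjusted p = 0.179). MMTVRANK luminal replicate 3, with 1625 CPM, made these groups overlap.

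Jund had 969, 667 and 566 CPM in WT luminal against 320.0, 318 and 363 CPM in WT basal libraries, a difference of 1.14 on the log2 scale (SE 0.24, adjusted p = 0.00256, edgeR) that was called in all 12 fits that left out 1 library. In MMTVRANK cells Jund had 551, 471 and 384 CPM in luminal against 269, 249.7 and 409 CPM in basal libraries, and the log2 fold change of 0.60 (SE 0.24) had an adjusted p of 0.0709. MMTVRANK luminal replicate 3 and MMTVRANK basal replicate 3 overlapped, and the adjusted p was 0.0498 without the luminal one and 0.022 without the basal one, with 224 CPM in the leukocyte markers of the basal one against 13.5 to 62.6 CPM in the other 5 basal libraries. It was also 0.0392 without WT luminal replicate 1, 0.0358 with no filter on low counts and 0.0471 with limma-voom. Junb had 795, 552 and 504 CPM in MMTVRANK luminal against 1172, 595 and 1041 CPM in MMTVRANK basal libraries, and 1275, 773 and 724 CPM in WT luminal against 1483, 754 and 1008 CPM in WT basal libraries. It overlapped in both genotypes, with log2 fold changes of -0.60 (SE 0.32, adjusted p = 0.182) in MMTVRANK and -0.23 (SE 0.32, adjusted p = 0.622) in WT. With the replicate number as a block the MMTVRANK value was -0.58 with an adjusted p of 0.0334.

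The counts of these genes carry a limit of the counting, which used no strand option. Jun shares 232 bp (7.28% of its exon length) with Junos on the opposite strand, Junb shares 173 bp (7.52%) with Prdx2, and Jund shares 877 bp (52.58%) with RP23-410L16.3. Those 3 genes had 2061, 14506 and 0 counts over all 12 libraries. Reads in the shared stretches cannot be told apart by strand. As RP23-410L16.3 had 0 counts, no read in its stretch shared with Jund was counted for it. How many of these reads were left out of the Jund count as well is not known. TPM divided the Jund counts by the full 1668 bp, so the TPM and family share of Jund may be too low.

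Luminal cells of both genotypes held more Atf3 RNA than basal cells, and no other of the 10 genes had a higher log2 fold change in these comparisons. It had 1367, 1146 and 954 CPM in MMTVRANK luminal against 278, 486 and 730.0 CPM in MMTVRANK basal libraries, and 2578, 1321 and 1517 CPM in WT luminal against 483, 616 and 596 CPM in WT basal libraries. All luminal libraries exceeded all basal libraries, and the log2 fold change was 1.21 (SE 0.33, adjusted p = 0.0133, edgeR) in MMTVRANK and 1.68 (SE 0.33, adjusted p = 0.00188) in WT. The WT call held in all 12 fits that left out 1 library and the MMTVRANK call in 11, with an adjusted p of 0.0526 without MMTVRANK luminal replicate 1. The deposited Atf3 gene spans chr1:191170296-191218039 (-) and the RefSeq start site used for the printed promoter lies inside it.

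Egr1 went the other way in MMTVRANK mice, with less of it in luminal cells. It had 1232, 895 and 795 CPM in MMTVRANK luminal against 1766, 1175 and 1928 CPM in MMTVRANK basal libraries, and the fitted value was -0.74 on the log2 scale (SE 0.24, adjusted p = 0.0352, edgeR). MMTVRANK luminal replicate 1 overlapped MMTVRANK basal replicate 2. The adjusted p was 0.115 and 0.112 without MMTVRANK luminal replicate 2 and 3, 0.107 and 0.135 without MMTVRANK basal replicate 1 and 3, and 0.0559 with both WT libraries numbered 2 left out. In WT cells Egr1 had 1240.2, 1330.3 and 938 CPM in luminal against 2016, 1872 and 1359.8 CPM in basal libraries, which did not overlap, and the log2 fold change of -0.58 (SE 0.24) had an adjusted p of 0.0797, or 0.0479 without WT basal replicate 3. Ier2 had 289.7, 219 and 205 CPM in MMTVRANK luminal against 199, 113 and 207 CPM in MMTVRANK basal libraries. In WT libraries it had 323, 267 and 189 CPM in luminal against 299, 190.3 and 165 CPM in basal cells, and neither comparison passed (adjusted p = 0.255 in MMTVRANK and 0.528 in WT).

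Counted together for luminal against basal cells, 1 member was higher and 4 were lower in MMTVRANK mice, where 33.2% of all tested genes were called (16.1% higher and 17% lower). In WT mice 3 were higher and 2 lower, where 38.1% of tested genes were called (18% higher and 20% lower). With 5 of 10 members called in each genotype, no test sets the members apart from that background. The MMTVRANK count fell to 2 without MMTVRANK luminal replicate 1 or 2 and to 3 without MMTVRANK luminal replicate 3 or MMTVRANK basal replicate 2 or 3. The median log2 fold change of the members was -0.18 in MMTVRANK beside 0.05 over all tested genes, and 0.36 in WT beside -0.07.

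Other immediate early genes were set beside the 10 members from a list of 35, all tested, which holds nuclear receptors of the Nr4a family, Klf factors, Dusp phosphatases and secreted factors such as Cyr61 and Ctgf. None passed the test between genotypes in luminal or in basal cells, with medians of -0.12 and -0.10 beside 0.03 and 0.00 over all tested genes. The closest in luminal cells was Klf4, a factor of epithelial differentiation, at 141 ± 13.8 CPM in MMTVRANK and 279 ± 39.4 CPM in WT (SD, n = 3 each; log2 fold change -0.98, SE 0.21, adjusted p = 0.0782, edgeR).

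Between the populations the same list moved mostly to the basal side: in luminal cells 4 of 35 were higher and 20 lower in MMTVRANK mice, and 4 higher and 21 lower in WT mice. That is 68.6% and 71.4% of the list called in either direction, beside 33.2% and 38.1% of all tested genes. The same 19 were lower and the same 4 higher in both genotypes, and the medians were -0.95 in MMTVRANK and -0.96 in WT. Nr4a2, an orphan nuclear receptor, averaged 12.1 ± 6.16 CPM in MMTVRANK luminal and 8.00 ± 1.68 CPM in WT luminal against 247 ± 18.6 CPM in MMTVRANK basal and 280.4 ± 45.3 CPM in WT basal cells. Its log2 fold change was -4.35 (SE 0.32) in MMTVRANK and -5.13 (SE 0.33) in WT. Myc, the growth-promoting factor, averaged 86.9 ± 13.2 CPM in MMTVRANK luminal and 68.3 ± 17.7 CPM in WT luminal against 389 ± 52.5 CPM in MMTVRANK basal and 388 ± 19.9 CPM in WT basal cells. Arc averaged 17.8 ± 3.75 CPM in WT luminal against 1036 ± 283 CPM in WT basal cells, and Ctgf, a matricellular protein, 3.00 ± 0.432 CPM against 410.2 ± 201 CPM. Nr4a3 and Dusp6, a phosphatase of ERK kinases, were also lower in MMTVRANK luminal cells, with log2 fold changes of -4.92 and -1.91. No test was made of the list against other genes. The 6 fibroblast markers summed to 37.5 to 233 CPM in luminal and 269 to 2772 CPM in basal libraries, none of them at 0. In luminal cells 2 of the 6 were called lower in MMTVRANK mice and all 6 in WT mice. Of 6 endothelial markers 5 were lower in luminal cells of both genotypes and Vwf was higher; Kdr, an endothelial receptor of VEGF, averaged 1.33 ± 1.11 and 0.54 ± 0.120 CPM in MMTVRANK and WT luminal cells against 42.1 ± 21.1 and 39.7 ± 15.9 CPM in MMTVRANK and WT basal cells. The endothelial sum, in which Vwf weighs most in luminal cells, was 103 to 250.4 CPM in luminal libraries, with 1 marker at 0 in 2 of them, and 70.7 to 241 CPM in basal libraries, with none at 0. Of 6 pericyte markers 2 were lower in MMTVRANK and 5 in WT luminal cells, and Notch3 was higher in both. The pericyte sum was 175 to 247 CPM in luminal libraries, with up to 2 markers at 0, and 50.3 to 133 CPM in basal libraries, with none at 0. In luminal cells Notch3 weighs most in that sum, with 183 ± 31.7 CPM in MMTVRANK and 226 ± 16.9 CPM in WT. The part of these other cell types in the differences was not tested.

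**Figure D4:**
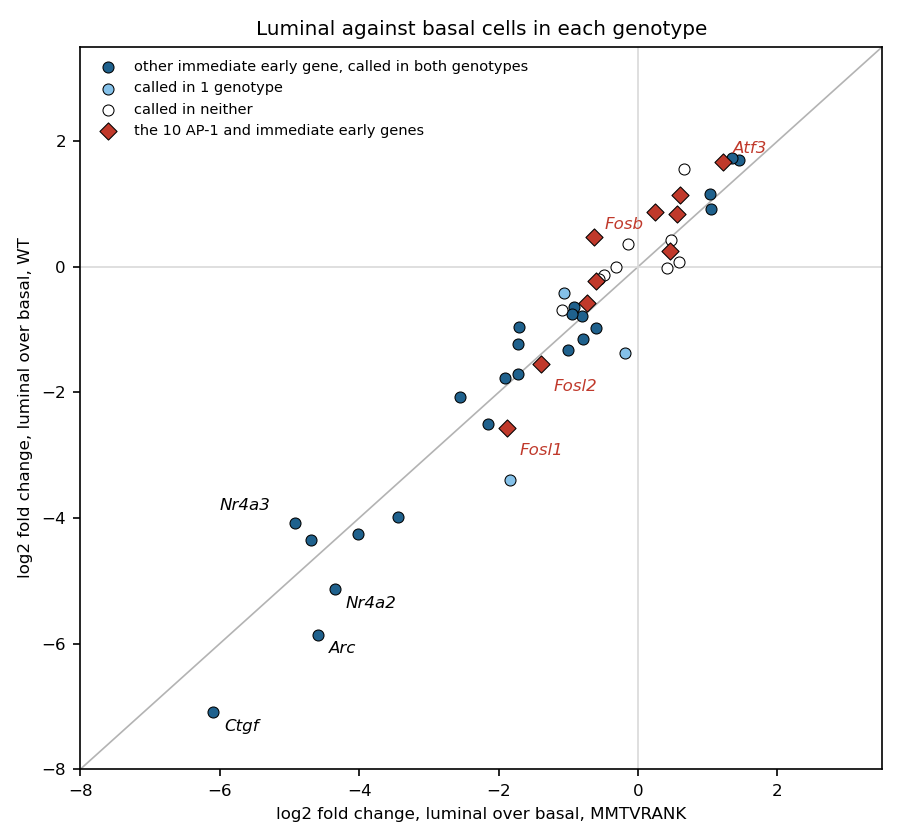
Log2 fold change of luminal over basal cells in MMTVRANK (x axis) against the same in WT (y axis), for 35 other immediate early genes (circles, filled by the number of genotypes in which they were called) and the 10 AP-1 and immediate early genes (diamonds); the grey diagonal marks equal values. The 19 genes called lower in both genotypes lie at the lower left, and Atf3 lies at 1.21 and 1.68.

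Leucine zipper partners of AP-1 were taken from a list of 20, of which luminal cells had 2 higher and 9 lower in MMTVRANK mice, and 1 higher and 7 lower in WT mice. The 40% of the list called in WT is near the 38.1% of all tested genes, and 55% were called in MMTVRANK beside 33.2%. Nfe2l2, the regulator of the oxidative stress response, averaged 80.4 ± 6.79 CPM in MMTVRANK luminal and 109 ± 21.3 CPM in WT luminal against 228 ± 15.7 CPM in MMTVRANK basal and 202 ± 27.5 CPM in WT basal cells. Atf4, of the integrated stress response, was also lower in luminal cells, with log2 fold changes of -0.60 in MMTVRANK and -0.87 in WT. No partner passed the test between genotypes, and the closest was the small Maf protein gene Mafk in luminal cells (log2 fold change -0.65, SE 0.14, adjusted p = 0.0838, edgeR).

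Of 24 kinases and factors that act upstream of AP-1, 1 rose in MMTVRANK luminal cells. That is 4.17% of the list, beside 0.252% of all tested genes called and 0.0932% called higher. Map2k6, the kinase that activates p38, averaged 10.8 ± 2.30 CPM in MMTVRANK luminal against 3.07 ± 0.578 CPM in WT luminal cells (log2 fold change 1.81, SE 0.29, adjusted p = 0.0387, edgeR). The log2 fold change lay between 1.64 and 1.93 in 20 alternative fits, run after this call had been seen, but only 8 of them called it. The adjusted p was 0.105 with the luminal groups alone, 0.106 with limma-voom and 0.0706 with both WT libraries numbered 2 left out. It was 0.0584 and 0.1 without MMTVRANK luminal replicate 1 and 3, 0.127, 0.0717 and 0.0793 without WT luminal replicate 1, 2 and 3, 0.0763, 0.0705 and 0.0765 without MMTVRANK basal replicate 1, 2 and 3, and 0.0577 without WT basal replicate 1. None passed in basal cells. Against basal cells, 7 were higher and 8 lower in MMTVRANK luminal cells, and 8 higher and 9 lower in WT luminal cells. These are 62.5% and 70.8% of the list, beside 33.2% and 38.1% of all tested genes called. The p38 kinases Mapk13 and Mapk12 were higher in luminal cells: Mapk13 averaged 55.1 ± 9.87 CPM in MMTVRANK luminal and 78.2 ± 13.4 CPM in WT luminal against 8.62 ± 1.84 CPM in MMTVRANK basal and 15.5 ± 4.80 CPM in WT basal cells. Elk3, a partner of serum response factor, was lower in luminal cells, with log2 fold changes of -1.67 in MMTVRANK and -1.80 in WT.

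Of 28 genes known as AP-1 targets 22 were tested, among them Fosl1 itself. None passed the test between genotypes, with medians of -0.28 in luminal and -0.47 in basal cells. Against basal cells, 6 were higher and 13 lower in MMTVRANK luminal cells, and 3 higher and 12 lower in WT luminal cells. These are 86.4% and 68.2% of those tested, beside 33.2% and 38.1% of all tested genes called. Areg, the ligand of the EGF receptor through which estrogen acts in the gland, averaged 786 ± 421 CPM in MMTVRANK luminal and 1321 ± 746 CPM in WT luminal against 3.92 ± 1.21 CPM in MMTVRANK basal and 7.12 ± 6.58 CPM in WT basal cells. Plau, which encodes urokinase, averaged 8.61 ± 3.77 and 3.01 ± 1.52 CPM in MMTVRANK and WT luminal cells against 83.3 ± 40.3 and 88.2 ± 23.0 CPM in MMTVRANK and WT basal cells. Of 15 heat shock genes none passed between genotypes, while 4 were lower in luminal cells of MMTVRANK mice and 5 in WT. These are 26.7% and 33.3% of the list, below the 33.2% and 38.1% of all tested genes called. The co-chaperone gene Bag3 averaged 137 ± 28.4 and 183 ± 37.9 CPM in MMTVRANK and WT luminal cells against 395 ± 49.8 and 461 ± 25.5 CPM in MMTVRANK and WT basal cells.

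Profiles over the 12 libraries were compared by the root mean square difference of gene-centred log2 CPM, where 0 means the same profile, over 11906 genes with an average log2 CPM of 2 or more. Outside the 10 members, Fos was nearest to Mfn2 (0.22), Snx21 (0.25) and Slc9a3r2 (0.26). Jun was nearest to Mfn2 (0.16), Snx21 (0.17) and Cers5 (0.17). Among the members Fos and Jun were each other's nearest at 0.22, and Egr1 and Junb at 0.33, while the nearest member to Fosb was Junb at 0.51 and to Fosl1 was Fosl2 at 0.77. The 12 libraries share populations and depth, so these distances are a description only.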

How the data were processed

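Per the submitters' processing notes, STAR 2.6.1b aligned the reads to GRCm38.p6 and Subread 1.5 assigned them. The deposited values are whole read counts for each symbol; per the file headers they come from featureCounts 1.5.2 and GENCODE M17, with no strand option. The kit was a stranded one for total RNA, per the labels' protocols. Genes were kept by filterByExpr (count minimum 10), and TMM-scaled counts of all 12 libraries entered 1 robust quasi-likelihood fit with 4 groups (edgeR 4.0.16, R 4.3.3; common biological coefficient of variation 0.450). Calls use a Benjamini-Hochberg adjusted p under 0.05 over 18236 genes. Each SE was obtained by dividing the log2 fold change by the root of F. TPM used the deposited summed exon length. Steps were tested on simulated data.

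No 2 of the 12 libraries were duplicates, since the lowest chi-square per degree of freedom over 66 pairs was 18.5. Groups followed the titles. Replicate numbers, whose meaning the labels leave unstated, were read as pairing libraries from the data alone where the deviations of all 3 same-numbered pairs from their group means (10082 genes) correlated above 0.1. The values were 0.525, 0.125 and 0.392 for the luminal genotypes, 0.278, 0.144 and 0.199 for MMTVRANK populations, and 0.277, 0.168 and 0.343 for WT populations. The alternatives were median-of-ratios and upper-quartile scaling, no filter, DESeq2 1.42.0, limma-voom (limma 3.58.1), compared groups alone, a replicate block, leaving out each library, and leaving out both WT libraries numbered 2. The members, lists and tests were chosen with earlier results of these data known. All 10 members were named, with up to 4 genes of smallest p per list, the 3 nearest profiles to Fos and Jun, and Tnfrsf11a. RefSeq promoters came from a table of GRCm38.p6.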

Additional observations from a re-analysis of the deposited data

How the results depend on the processing

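Of 990 alternative values for single members, 916 kept direction and call, 36 lost the call, 13 gained one and 25 changed sign. Neither median-of-ratios nor upper-quartile scaling changed a member's call or sign, and all 40 group mean levels moved by less than 1 SD without TMM factors. The causes of the changes were not tested.

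Counts over all tested genes moved more. For genotype in luminal cells 46 calls became 1353 with no filter on low counts, 727 with DESeq2, 7 with the luminal groups fitted alone, 103 with the replicate block, 81 with both WT libraries numbered 2 left out, and 3 to 93 when 1 library was left out. For genotype in basal cells 1 call became 349 with no filter, 67 with DESeq2, 0 with limma-voom, 0 with the basal groups alone, 4 with both WT libraries numbered 2 left out, and 0 to 8 when 1 library was left out. For the difference of genotype effects 1 call became 776 with no filter, 124 with DESeq2, 0 with limma-voom, 0 with the replicate block, 3 with both WT libraries numbered 2 left out, and 0 to 7 when 1 library was left out.

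For genotype in luminal cells the called members numbered 2 with no filter, 0 with the luminal groups alone, and 0 to 1 when 1 library was left out. For the difference of effects there was 1 with no filter. For luminal against basal cells of MMTVRANK mice the 5 calls became 2 to 6 when 1 library was left out. The replicate block changed no call of a member beyond those given for Fos, Fosb and Junb. In basal cells the numbers did not pair the genotypes (correlations 0.404, -0.0706 and 0.0915), and the block left 1 gene called there.

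Every sign change was in a comparison where that member was not called. Leaving out 1 library gave log2 fold changes for genotype in luminal cells of -0.18 to 0.55 for Fosl1, -0.48 to 0.0711 for Fosl2 and -0.36 to 0.0663 for Ier2. In basal cells it gave -0.37 to 0.22 for Fos, -0.85 to 0.14 for Fosl1, -0.60 to 0.0335 for Fosl2, -0.34 to 0.0431 for Jun, -0.40 to 0.0987 for Junb, -0.35 to 0.0358 for Jund, -0.56 to 0.11 for Atf3 and -0.25 to 0.0902 for Egr1. Leaving out both WT libraries numbered 2 gave 0.14 for Fosl1 there. Between populations, leaving out 1 library gave -0.0547 to 0.51 for Fos in MMTVRANK and -0.52 to 0.0820 for Junb in WT. For the difference of effects, leaving out 1 library gave -0.26 to 0.48 for Fosl2 and -0.10 to 0.39 for Ier2. Members had 204 to 61009 counts in a library, with the lowest for Fosl1 in WT luminal replicate 1 and the highest for Fosb in WT luminal replicate 3.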
